A study of Mus musculus with 19 samples.

Results

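The 42 cell cycle and mitosis genes described here were taken by name and looked up by Entrez Gene ID in RNA-seq count tables of 19 mouse libraries. All 42 were found among the 36528 gene IDs of the tables. They were listed for their role in DNA replication and cell division. No measured value of these libraries entered the list itself, but it was chosen with earlier results of these data known. Each of the 42 had counts in every library, from 7 to 2935 reads per gene and library. All 42 passed the filter on low counts in every comparison below, and none shared its counts with another gene ID.

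The libraries hold polyadenylated RNA from sorted alveolar type II (AT2) cells and from lung tissue. The groups are 5 AT2 libraries labelled Etv5KO, 4 AT2 libraries labelled as controls, 5 lung libraries labelled Etv5KO and 5 lung control libraries. All mice carried SpcCreERT2, a tamoxifen-dependent Cre recombinase driven by the surfactant protein C promoter, and the RosatdTomato reporter. Mice of the Etv5KO groups also carried Etv5ko/loxp, that is 1 knockout and 1 loxP-flanked allele of Etv5, which encodes a transcription factor of the ETS family. Tamoxifen was given to both genotypes at 100 mg/kg for 5 days, and tissue was taken after a further 5 days. AT2 cells were sorted as positive for EpCAM and tdTomato and negative for CD45 and CD31. The surfactant protein C promoter limits Cre to cells that use it, so most cell types of the lung samples fall outside its reach. The knockout allele does not depend on Cre, so the other cells of Etv5KO mice also carry it and differ from controls in genotype. The design names 5 mice per genotype, and the fifth AT2 control library was not analysed here. The labels do not tie libraries to mice, so p-values measure the spread between these libraries, numbered here in accession order within a group. In such bulk samples, fewer cells of a type and less RNA per cell cannot be told apart.

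Etv5 itself gave no lower level under the Etv5KO label: it lay between 615 and 761 CPM (read counts scaled to library size) in Etv5KO AT2 cells, against 636 and 718 CPM in control AT2 cells. In lung it lay between 94.4 and 119.5 CPM in Etv5KO libraries, against 92.9 and 112 CPM in controls. The level of Etv5 therefore gives no check of the genotype labels, and every direction below is one between libraries labelled Etv5KO and libraries labelled control. Total counts per library ran from 17426415 to 26722625 in Etv5KO AT2 cells, from 20279607 to 28671262 in control AT2 cells, from 20332410 to 22478603 in Etv5KO lung and from 14971793 to 26989453 in control lung. The sort was checked on marker lists: all 10 AT2 markers, the surfactant protein genes among them, were higher in AT2 cells than in lung in both genotypes, while all 8 endothelial, all 9 macrophage and all 8 mesenchymal markers were lower (edgeR adjusted p under 0.05 for each). No marker of these 4 lists was at 0 in any AT2 library.

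As background, a dividing cell first loads the MCM helicase onto its replication origins, then copies its DNA in S phase, and then separates the copies in mitosis. E2F transcription factors switch on the genes of the first steps around the G1/S boundary. The genes of mitosis come on later, many through promoters with a CHR element (cell cycle genes homology region) and CCAAT boxes, bound by the DREAM, B-MYB and FOXM1 complexes and by NF-Y. In the adult lung, AT2 cells divide rarely at rest and act as progenitors that renew the alveolar epithelium after injury. mRNA of these genes is abundant in cycling cells and scarce in resting ones, so their level in a tissue follows the number of cycling cells among others.

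Promoter windows from RefSeq (GRCm38.p6, 250 bases before to 50 bases after each gene's start, 300 bases in all) show what the members share in sequence. Of the 42 members, 35 have 37 windows in the table, and Aurkb, Ccna2, Ccne2, Foxm1, Kif20a, Mcm4 and Tpx2 have none. The windows were searched on both strands for the CHR (TTTGAA or TTCGAA), the CCAAT box, the E2F site (TTCCCGC or TTCGCGC or TTGCCGC or TTGGCGC) and the ETS sequence CCGGAAG. Shorter or other ETS sequences were not searched for. A CHR was present in 20 of 37 member windows (54.1%), against 19.2% of all 32851 windows of the table. A CCAAT box was present in 28 of 37 (75.7%), against 37.4% of all windows, and both motifs together in 19 of 37 (51.4%), against 7.52%. The sequence CCGGAAG was present in 6 of 37 member windows (16.2%), against 8.86% of all windows. These shares are descriptions of the letters in the windows and do not show that a factor binds there.

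The motifs divided along the order of the cell cycle. Among 14 windows of members that act in licensing, DNA synthesis or the G1/S step, 2 held a CHR (14.3%) and 9 an E2F site (64.3%). Among 23 windows of members that act later, 18 held a CHR (78.3%) and 3 an E2F site (13.0%), where 9.57% of all windows held one. The windows below are shown for Bub1, the only member past the threshold between genotypes, for the proliferation marker Mki67, and for the members with most kinds of motif in the licensing (Mcm7), mitotic kinase (Cdk1) and checkpoint (Cdc20) roles. Aurka also holds 3 kinds, as Cdk1 does, and Cdk1 was taken for its larger number of matches. Capitals mark every match to a motif, on either strand, and each window is written 5′ to 3′ in the direction of its gene. In Mcm7, the last pair of E2F matches and the last CCAAT box overlap in 1 run of capitals.
Bub1, chr2:127831810-127832109, minus strand: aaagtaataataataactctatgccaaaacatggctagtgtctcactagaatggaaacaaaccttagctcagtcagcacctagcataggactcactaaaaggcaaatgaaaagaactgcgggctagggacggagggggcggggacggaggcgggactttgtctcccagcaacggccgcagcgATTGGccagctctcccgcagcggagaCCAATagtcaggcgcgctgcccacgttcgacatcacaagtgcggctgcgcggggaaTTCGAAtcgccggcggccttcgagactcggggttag
Mki67, chr7:135716330-135716629, minus strand: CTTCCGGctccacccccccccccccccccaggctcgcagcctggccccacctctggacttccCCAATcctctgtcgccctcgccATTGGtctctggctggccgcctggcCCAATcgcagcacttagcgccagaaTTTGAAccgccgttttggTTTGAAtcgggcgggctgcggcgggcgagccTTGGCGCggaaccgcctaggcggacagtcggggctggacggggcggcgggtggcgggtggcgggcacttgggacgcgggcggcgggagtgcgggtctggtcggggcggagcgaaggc
Mcm7, chr5:138171834-138172133, minus strand: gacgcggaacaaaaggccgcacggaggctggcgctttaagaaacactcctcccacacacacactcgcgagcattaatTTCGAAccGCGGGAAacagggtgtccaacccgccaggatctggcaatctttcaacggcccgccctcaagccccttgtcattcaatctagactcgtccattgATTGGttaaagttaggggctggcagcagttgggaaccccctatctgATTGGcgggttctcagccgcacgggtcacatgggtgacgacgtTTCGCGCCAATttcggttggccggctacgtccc
Cdk1, chr10:69352863-69353162, minus strand: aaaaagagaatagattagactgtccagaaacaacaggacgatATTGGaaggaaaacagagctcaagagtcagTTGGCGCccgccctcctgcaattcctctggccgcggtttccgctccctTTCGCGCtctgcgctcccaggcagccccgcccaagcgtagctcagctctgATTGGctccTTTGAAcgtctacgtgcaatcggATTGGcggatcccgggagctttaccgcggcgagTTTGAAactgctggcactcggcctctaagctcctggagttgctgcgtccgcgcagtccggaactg
Cdc20, chr4:118437294-118437593, minus strand: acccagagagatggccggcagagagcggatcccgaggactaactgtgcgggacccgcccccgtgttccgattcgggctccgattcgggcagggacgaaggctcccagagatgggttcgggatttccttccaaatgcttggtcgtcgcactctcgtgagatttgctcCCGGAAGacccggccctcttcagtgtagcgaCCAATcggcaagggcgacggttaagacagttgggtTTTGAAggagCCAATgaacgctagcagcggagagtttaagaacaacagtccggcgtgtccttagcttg
The Bub1 window holds 1 CHR that begins 15 bases into the gene and 2 CCAAT boxes upstream of the start. It holds no E2F site in the forms searched and no match to CCGGAAG, which leaves shorter ETS sequences unsearched. The Mki67 and Cdk1 windows hold 2 CHR and 3 CCAAT boxes each. A match to CCGGAAG is present once in Mki67 and once in Cdc20, and in neither Mcm7 nor Cdk1.

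On the deposited RPKM scale, which corrects for gene length, the members spanned a wide range of levels. Mcm6, a subunit of the replicative helicase, had the highest mean over all 19 libraries at 18.1, followed by Cdc20, the activator of the anaphase-promoting complex, at 15.3 and its ubiquitin-conjugating enzyme Ube2c at 11.9. The lowest were Cdc6, which loads the helicase, at 0.604, cyclin B1 (Ccnb1) at 0.713 and the checkpoint kinase Ttk at 0.795. Bub1 stood at rank 31 of 42 with a mean of 3.004. All other levels below are CPM, which compare libraries for 1 gene and not genes with each other.

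The 42 members moved together between libraries of the same group. Their summed level was 1162, 1543, 946, 632 and 1722 CPM in the 5 Etv5KO AT2 libraries, against 558, 1318, 897 and 379.5 CPM in the 4 control AT2 libraries. In lung it was 640.1, 866, 667, 474 and 608 CPM in Etv5KO libraries, against 1042, 462, 374, 467 and 393 CPM in controls. Within both tissues the ranges of the genotypes overlapped, and 1 library of each control group stood well above the middle of its group. Control AT2 library 2 was the highest of its group for 42 of 42 members, against 32.4% of all genes tested, and control lung library 1 was the highest of its group for 42 of 42, against 26.5%. At the other end, control AT2 library 4 was the lowest for 38 members, against 26.4% of all genes tested. Etv5KO AT2 library 4 was the lowest for 41, against 19.7%. Etv5KO lung library 2 was the highest for 40 members, against 20.5% of all genes, and Etv5KO lung library 4 the lowest for 37, against 19.9%.

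**Figure D1:**
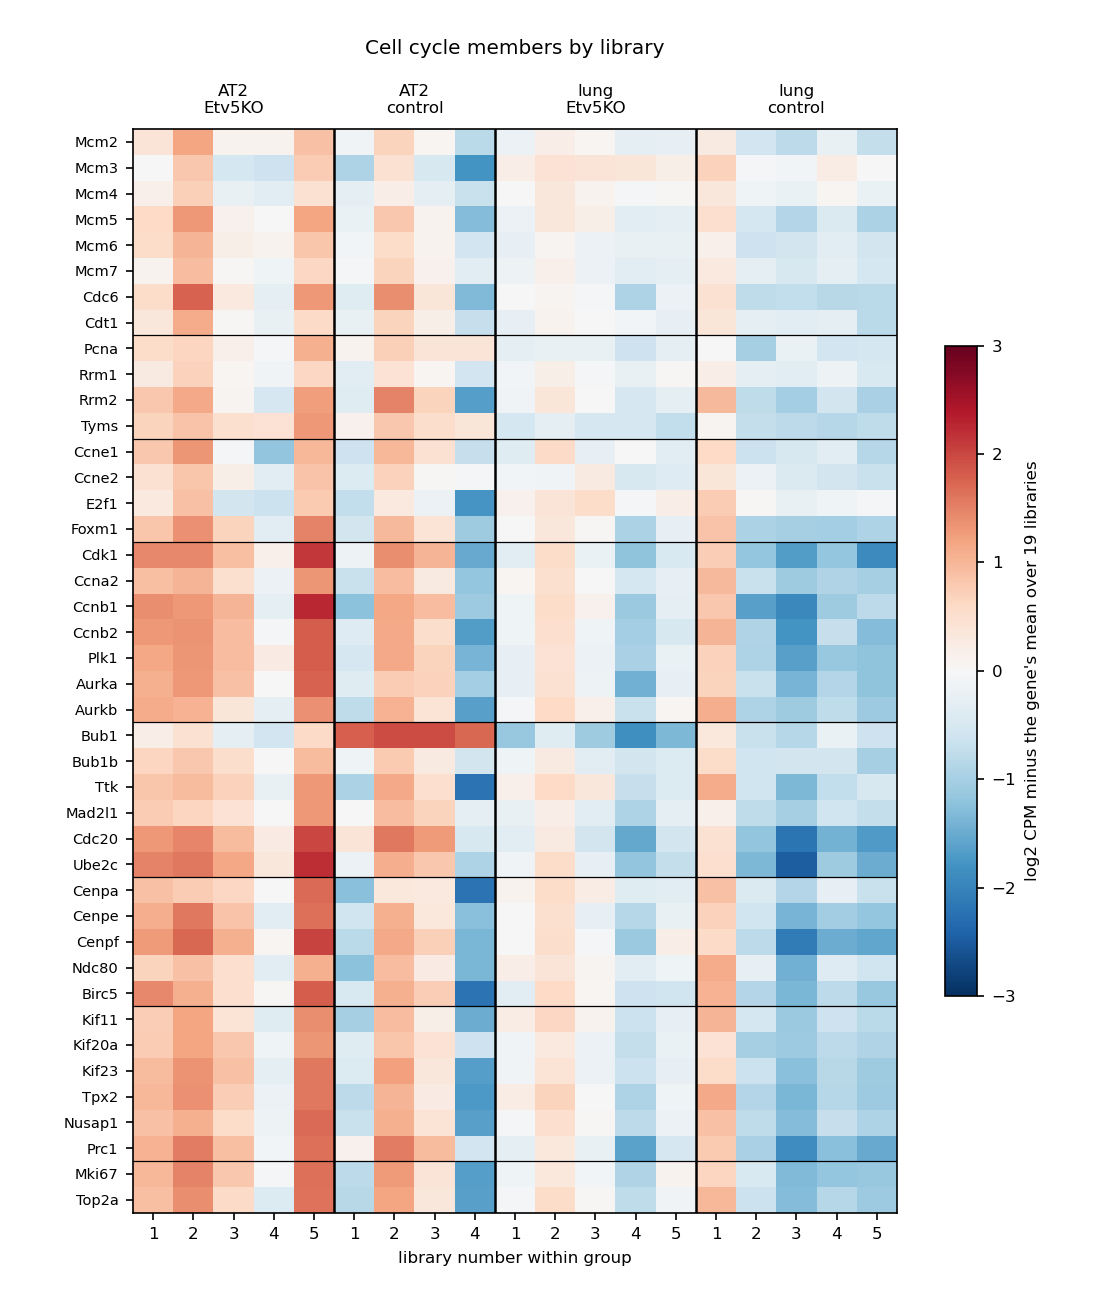
Level of each of the 42 members (rows, grouped by role from replication licensing at the top to Mki67 and Top2a at the bottom) in each of the 19 libraries (columns, by group), as log2 CPM minus the gene's mean over all libraries. Most rows change colour together from library to library, with control AT2 library 2 and control lung library 1 the highest of their groups for 42 of 42 members; the Bub1 row is highest in the 4 control AT2 libraries.

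**Figure D2:**
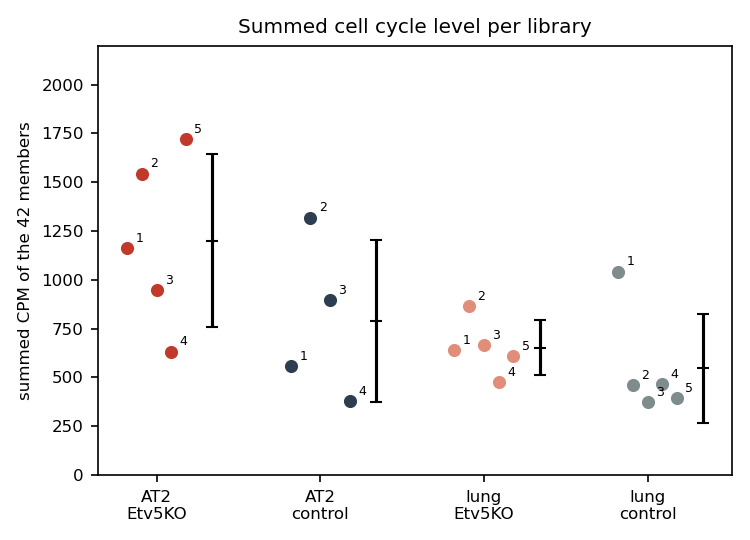
Summed CPM of the 42 members in each library (numbered points), with the mean and SD of each group as bars. Etv5KO AT2 libraries lie between 632 and 1722 CPM and control AT2 libraries between 379.5 and 1318 CPM; in lung, control library 1 at 1042 CPM lies above every other lung library.

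The size of this spread differed by role. The ratio of the highest to the lowest library of a group had a median over the members of 3.20 in Etv5KO AT2 cells and 4.30 in control AT2 cells, and of 2.13 in Etv5KO lung and 3.82 in control lung. In control AT2 cells the median ratio was 2.69 for the helicase and licensing genes and 1.80 for the DNA synthesis genes. It was 5.84 for the mitotic cyclins and kinases, 5.68 for the centromere and kinetochore genes and 7.26 for Mki67 and Top2a. In control lung the same medians were 1.94, 1.97, 4.97, 5.37 and 4.44. By these medians, the mitotic genes varied more between libraries of 1 group than the replication genes did. Bub1 had the smallest ratio of all 42 members in control AT2 cells, at 1.19, and Ttk the largest, at 10.3. Ttk was at 0.475 CPM in control AT2 library 4, its lowest, so its ratio rests on few reads. Ratios of other members at low counts are also less certain.

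In AT2 cells, 41 of the 42 members were higher on average in the libraries labelled Etv5KO than in controls, with a median log2 fold change of 0.69 over the members and −0.01 over all 14939 genes tested, but none of these 41 passed the test. The 1 member past the threshold was Bub1, a kinase of the spindle assembly checkpoint, and it was lower. With edgeR's quasi-likelihood test at an adjusted p of 0.05, 0 members were called higher, against 5.03% of all genes, and 1 was called lower, against 4.84%. At an unadjusted p under 0.05 there were 6 members (Bub1, Cenpa, Ube2c, Aurka, Mcm6 and Cenpf), against 22.2% of all genes. DESeq2 and limma-voom gave the same counts of 0 and 1. No member had every Etv5KO library above every control library, against 6.12% of all genes, and 1, Bub1, had every Etv5KO library below, against 6.37%.

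The size of the AT2 result depended on single libraries. Without control library 2 the median log2 fold change of the members was 1.18, 36 of 42 had an unadjusted p under 0.05, against 25.1% of all genes, and 1 member was called higher. That member was Tpx2, which carries Aurora A kinase to the spindle, at a log2 fold change of 1.54 (edgeR adjusted p = 0.0457 without that library, 0.254 with it). Without control library 4, the lowest of its group, the median was 0.43. The number of members with an unadjusted p under 0.05 was 2 without control library 4, against 19.6% of all genes, and 1 without control library 1, against 19.9%. It was 1 without Etv5KO library 5, against 20% of all genes, and 20 without Etv5KO library 4, against 20.8%. The summed level of the AT2 marker list was also lowest in control library 2 of its group, at 165957 CPM against 226629 to 258837 CPM in the other control AT2 libraries. The part of that difference in the result was not tested.

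Ordered by role, the helicase and licensing genes had a median log2 fold change of 0.54 in AT2 cells (8 genes, none past the threshold). Mcm6 was at 76.2, 105, 58.7, 56.2 and 93.5 CPM in Etv5KO AT2 libraries, against 48.9, 75.8, 56.4 and 34.8 CPM in controls. Its ranges overlapped, with a log2 fold change of 0.53 (SE 0.23, edgeR adjusted p = 0.201). Mcm7, another subunit of the ring, had one of the 3 smallest fold changes among the members: 15.0, 26.3, 14.2, 12.7 and 21.4 CPM in Etv5KO AT2 libraries, against 13.4, 21.9, 15.2 and 10.9 CPM in controls (log2 fold change 0.23, SE 0.24). Its Etv5KO and control values were intermixed.

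The DNA synthesis genes had the smallest median of the roles, 0.27 (4 genes, none past the threshold). Pcna, the sliding clamp of DNA polymerase, was at 10.04, 10.7, 7.57, 6.57 and 14.3 CPM in Etv5KO AT2 libraries, against 7.33, 11.2, 8.88 and 8.96 CPM in controls. Rrm1, the large subunit of ribonucleotide reductase, was at 52.8, 70.9, 45.7, 40.7 and 66.7 CPM in Etv5KO AT2 libraries, against 35.0, 58.6, 45.4 and 29.2 CPM in controls. The log2 fold change was 0.12 for Pcna (SE 0.22) and 0.40 for Rrm1 (SE 0.21, edgeR adjusted p = 0.301), with overlapping groups in both. Among the G1/S cyclins and transcription factors (4 genes, median 0.54, none past the threshold), E2f1, which switches on S phase genes, was at 16.2, 24.1, 9.01, 8.47 and 22.6 CPM in Etv5KO AT2 libraries, against 7.98, 16.3, 11.8 and 3.86 CPM in controls. Etv5KO libraries 1, 3 and 4 lay inside the control range.

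The roles of mitotic kinases, centromere and spindle had larger median differences than the replication roles. The median log2 fold change was 0.89 for the S/G2/M cyclins and mitotic kinases (7 genes), 0.98 for the centromere, kinetochore and chromosomal passenger genes (5 genes) and 0.80 for the spindle motors and midzone genes (6 genes), with none past the threshold. Cyclin A2 (Ccna2), which activates Cdk1 and Cdk2, was at 41.2, 44.6, 30.4, 19.4 and 55.4 CPM in Etv5KO AT2 libraries, against 13.8, 41.9, 26.6 and 9.79 CPM in controls. Control library 2 stood above 3 of the 5 Etv5KO libraries, and the log2 fold change was 0.73 (SE 0.39, edgeR adjusted p = 0.314).

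Cenpa, the histone H3 variant that marks the centromere, had the largest fold change of the members. It was at 17.7, 16.3, 14.8, 9.68 and 31.2 CPM in Etv5KO AT2 libraries, against 4.02, 11.9, 11.6 and 2.08 CPM in controls. Etv5KO library 4 alone fell inside the control range, for a log2 fold change of 1.27 (SE 0.46, 95% interval 0.25 to 2.28, edgeR adjusted p = 0.124). Cenpf, a large kinetochore protein of G2 and mitosis, was at 39.8, 54.2, 34.3, 17.05 and 67.6 CPM in Etv5KO AT2 libraries, against 9.39, 36.4, 27.2 and 6.41 CPM in controls. Its log2 fold change was 1.10 (SE 0.49, edgeR adjusted p = 0.213), and Etv5KO libraries 3 and 4 overlapped the controls. Kif20a, a kinesin of the central spindle, was at 45.1, 60.2, 46.3, 24.02 and 66.0 CPM in Etv5KO AT2 libraries, against 20.5, 46.9, 35.7 and 17.1 CPM in controls (log2 fold change 0.69, SE 0.32, edgeR adjusted p = 0.239). Its highest control library lay above 3 Etv5KO libraries.

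In the checkpoint and anaphase-promoting complex role (6 genes, median 0.43, 1 past the threshold), Ube2c and Cdc20 act together in mitotic exit. Ube2c was at 23.4, 25.0, 18.7, 10.6 and 38.7 CPM in Etv5KO AT2 libraries, against 7.49, 18.01, 14.7 and 4.39 CPM in controls (log2 fold change 1.06, SE 0.41, edgeR adjusted p = 0.148). Etv5KO library 4 alone lay inside the control range. Cdc20 was at 51.2, 57.3, 40.1, 24.5 and 83.4 CPM in Etv5KO AT2 libraries, against 27.3, 62.2, 50.7 and 14.9 CPM in controls (log2 fold change 0.41, SE 0.40, edgeR adjusted p = 0.622). Cdc20 overlaps Elovl1, a fatty acid elongase gene that was at 591 to 695 CPM in Etv5KO AT2 libraries, against 1939 to 3479 CPM in controls (log2 fold change −2.12, edgeR adjusted p = 1.27e-05). Whether counting used strand is not given in the sources used here, so reads of the overlap cannot be told apart and the Cdc20 value is uncertain.

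The proliferation markers Mki67, which encodes the Ki-67 protein that coats mitotic chromosomes, and Top2a, which untangles DNA, gave the same picture as the mitotic genes. Mki67 was at 96.1, 137, 84.9, 46.7 and 151 CPM in Etv5KO AT2 libraries, against 28.1, 117, 63.4 and 15.5 CPM in controls (log2 fold change 0.88, SE 0.50, edgeR adjusted p = 0.341). Top2a was at 80.4, 113, 64.2, 32.0 and 133 CPM in Etv5KO AT2 libraries, against 24.3, 97.1, 54.0 and 13.9 CPM in controls (log2 fold change 0.84, SE 0.52, edgeR adjusted p = 0.384). In both genes control library 2 lay above 3 of the Etv5KO libraries, and the groups overlapped.

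**Figure D3:**
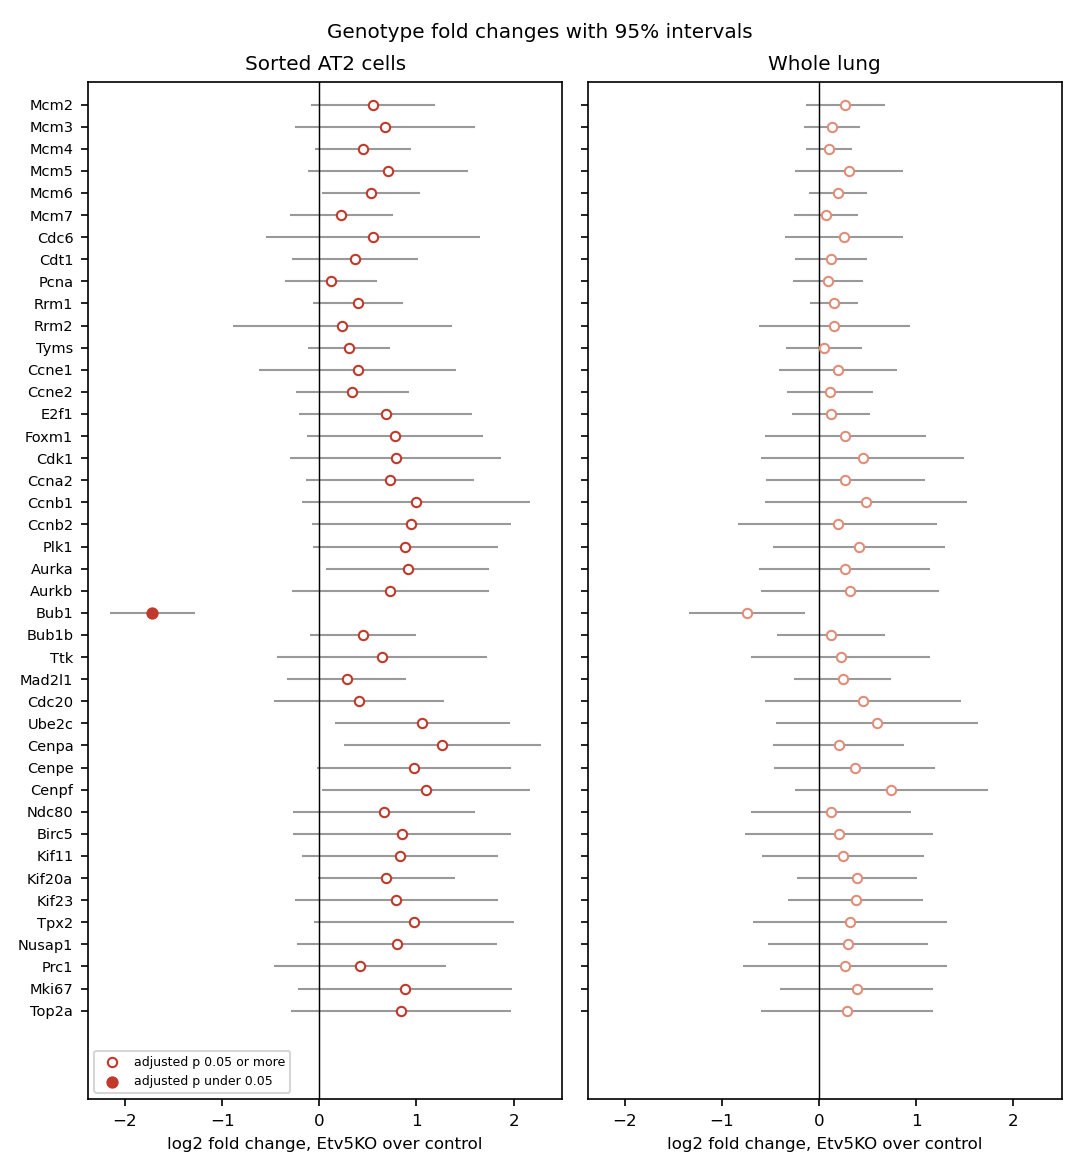
Log2 fold change of each member, libraries labelled Etv5KO over controls, in AT2 cells (left) and lung (right), with 95% intervals; filled points have an edgeR adjusted p under 0.05. Bub1 in AT2 cells is the only filled point, at −1.72, and the other 41 members lie above 0 in both tissues.

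Bub1 (Entrez Gene 12235) went against the other members. It was at 11.4, 13.6, 8.08, 6.68 and 14.9 CPM in Etv5KO AT2 libraries, against 34.4, 38.9, 38.6 and 32.7 CPM in controls. The groups did not overlap, and the highest Etv5KO library was under the lowest control. Its mean was 10.9 ± 3.50 CPM in Etv5KO AT2 cells and 36.2 ± 3.06 CPM in controls (SD, n = 5 and 4), a log2 fold change of −1.72 (SE 0.20, 95% interval −2.16 to −1.28, edgeR adjusted p = 0.00025). Its relative Bub1b, which encodes BubR1 of the same checkpoint, was at 29.7, 33.4, 27.4, 19.01 and 36.7 CPM in Etv5KO AT2 libraries, against 17.4, 32.6, 22.8 and 13.0 CPM in controls (log2 fold change 0.45, SE 0.25). Bub1b therefore followed the other members in direction, with overlapping groups.

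Bub1 also stood apart in how it followed the other members from library to library. As a share of the summed CPM of the other 41 members, a description chosen after its values were seen, Bub1 was 0.993%, 0.890%, 0.861%, 1.07% and 0.871% in Etv5KO AT2 libraries, against 6.58%, 3.04%, 4.49% and 9.44% in controls. In Etv5KO AT2 cells the share was near 1% in each library, while in controls it was largest in library 4, where the other members were lowest. In lung the share was 0.708%, 0.897%, 0.721%, 0.593% and 0.651% in Etv5KO libraries, against 1.21%, 1.38%, 1.49%, 1.89% and 1.68% in controls. Among the 42 members, each taken as a share of the other 41, Bub1 was the only one whose genotypes did not overlap in AT2 cells, and also the only one in lung. In lung the CPM of Bub1 itself did overlap between genotypes. The share was not taken for genes outside the list, so how often it separates the genotypes among all genes is not known.

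The gene next to Bub1 in the RefSeq gene order is Acoxl, an acyl-CoA oxidase-like gene that does not overlap it. Acoxl was at 185, 116, 91.1, 170.1 and 110.4 CPM in Etv5KO AT2 libraries, against 888, 691, 952 and 868 CPM in controls (log2 fold change −2.65, SE 0.20, edgeR adjusted p = 1.46e-05). In lung it was at 10.6, 15.2, 14.3, 23.4 and 22.6 CPM in Etv5KO libraries, against 88.6, 98.8, 109, 128 and 101 CPM in controls (log2 fold change −2.62, edgeR adjusted p = 0.000145). Both genes were lower in the libraries labelled Etv5KO without overlap in AT2 cells, and Acoxl also in lung. Whether reads that begin in Acoxl are counted for Bub1 was not tested. The neighbour on the other side, Mtln, had a log2 fold change of 0.18 in AT2 cells. In all, 12 of the 84 neighbours of members tested in AT2 cells passed the threshold in either direction. Over all genes, 5.03% passed as higher and 4.84% as lower. The 11 members that overlap another gene of the tables are Mcm7 (with Ap4m1, Mir25, Mir93 and Mir106b), Ccne2 (A630034I12Rik and Ints8), E2f1 (Necab3), Foxm1 (Tex52), Ccna2 (Exosc9), Aurka (Cstf1), Cdc20 (Elovl1), Kif20a (Brd8 and Cdc23), Tpx2 (Mir5622), Nusap1 (Oip5) and Prc1 (Rccd1). Elovl1 alone of these overlapping genes passed the threshold between genotypes in AT2 cells or in lung, among those tested. With strand use unknown, reads of the overlaps cannot be told apart, and the values of all 11 members are uncertain to that extent.

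**Figure D4:**
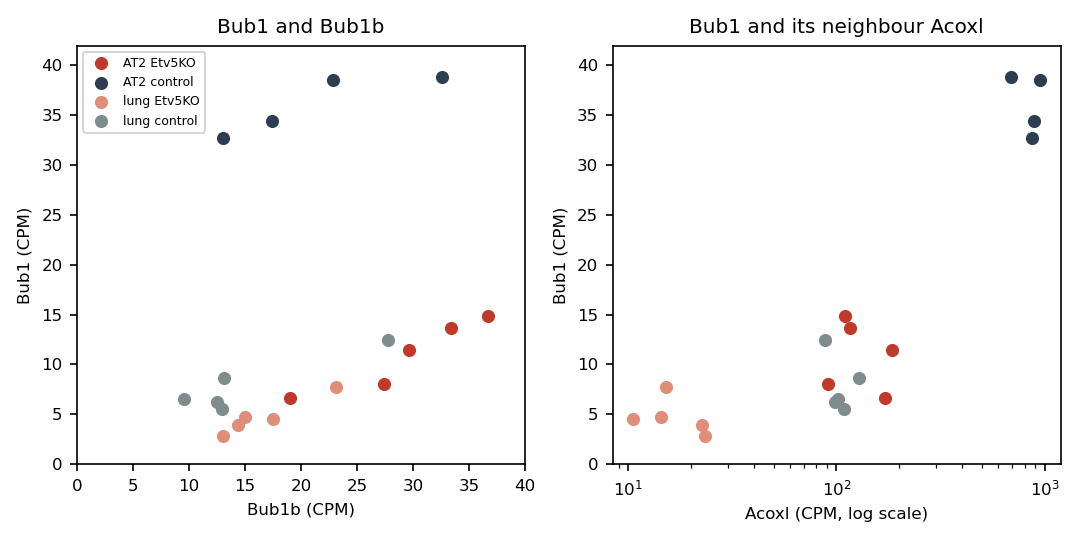
Bub1 level in CPM for each of the 19 libraries, against Bub1b (left, CPM) and against its neighbour Acoxl (right, CPM on a log axis), coloured by group. The 4 control AT2 libraries lie at 32.7 to 38.9 CPM of Bub1 at any level of Bub1b, apart from the 15 others, which reach 14.9 CPM at most; on the right, the same 4 libraries have Acoxl at 691 to 952 CPM.

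In lung, 41 of the 42 members were again higher on average in libraries labelled Etv5KO, with a median log2 fold change of 0.25 (−0.01 over all 17098 genes tested), and no member passed the test. Called higher were 0 members, against 0.205% of all genes, and called lower 0, against 0.211%. One member, Bub1, had an unadjusted p under 0.05, against 5.52% of all genes, and DESeq2 and limma-voom also called 0. No member had groups without overlap in either direction, against 0.983% of genes higher and 0.567% lower. Bub1 was at 4.50, 7.70, 4.77, 2.79 and 3.93 CPM in Etv5KO lung libraries, against 12.4, 6.28, 5.50, 8.67 and 6.51 CPM in controls (log2 fold change −0.74, SE 0.27, edgeR adjusted p = 0.678). Etv5KO library 2 lay inside the control range.

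The size of the lung differences depended on single libraries, and most on control lung library 1. Leaving out 1 library at a time, the median log2 fold change ran from 0.11 without Etv5KO library 2 (36 of 42 above 0) to 0.79 without control library 1. It was 0.13 without control library 3 and 0.15 without control library 5. Without control library 1, 39 of 42 members had an unadjusted p under 0.05, against 9.68% of all genes, but still 0 members passed the adjusted threshold. The smallest adjusted p without it were 0.0600 for Ccna2 (log2 fold change 0.88), 0.0624 for Kif20a (0.79), 0.0732 for Aurkb, the chromosomal passenger kinase (1.02), and 0.0839 for Cenpf (1.43). Library 1 also stood apart in cell type markers: its summed airway marker level was 13957 CPM, against 23675 to 27020 CPM in the other control lung libraries. Its summed mesenchymal marker level was 4232 CPM, against 2202 to 2740 CPM in the others. In Etv5KO lung, library 2, the highest for 40 members, had the highest mesenchymal sum of its group, 4235 CPM, and library 4, the lowest for 37 members, had the lowest, 2140 CPM. The part of these cell type differences in the results was not tested.

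Library values of the members show how far control lung library 1 stood from its group. Mki67 was at 44.4, 60.2, 45.4, 25.8 and 52.3 CPM in Etv5KO lung libraries, against 75.8, 35.2, 19.2, 21.7 and 21.8 CPM in controls. Top2a was at 41.6, 62.9, 44.0, 25.5 and 39.8 CPM in Etv5KO lung libraries, against 85.8, 27.6, 17.4, 23.7 and 20.2 CPM in controls. In both, control library 1 was the highest of all 10 lung libraries, and the other 4 controls lay at or under the middle of the Etv5KO range. Ccna2 was at 22.9, 30.7, 21.7, 15.3 and 18.6 CPM in Etv5KO lung libraries, against 42.9, 13.8, 10.5, 11.8 and 11.1 CPM in controls. Kif20a was at 24.6, 32.5, 23.4, 16.2 and 23.1 CPM in Etv5KO lung libraries, against 35.9, 13.2, 12.4, 15.3 and 14.2 CPM in controls. In these genes the 4 control libraries other than library 1 lay below every Etv5KO library.

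The same held for Cdc20 and Ube2c in part. Cdc20 was at 16.8, 25.1, 14.2, 7.17 and 14.1 CPM in Etv5KO lung libraries, against 28.5, 9.09, 4.56, 7.81 and 6.45 CPM in controls. Ube2c was at 7.77, 12.3, 7.12, 3.71 and 5.12 CPM in Etv5KO lung libraries, against 11.9, 3.28, 1.51, 3.99 and 3.02 CPM in controls. Etv5KO library 4 lay among the controls in both genes. Cenpa was at 10.4, 13.9, 11.2, 7.38 and 7.74 CPM in Etv5KO lung libraries, against 17.5, 7.04, 5.23, 8.06 and 5.98 CPM in controls. Cenpf was at 16.6, 23.7, 15.8, 7.63 and 18.997 CPM in Etv5KO lung libraries, against 24.5, 9.56, 3.82, 5.90 and 5.55 CPM in controls. Its log2 fold change of 0.74 (SE 0.46, edgeR adjusted p = 0.978) was the largest of the members in lung.

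The replication genes differed less between lung libraries. Mcm6 was at 43.6, 55.6, 46.4, 44.8 and 45.0 CPM in Etv5KO lung libraries, against 57.9, 33.7, 35.3, 41.9 and 35.7 CPM in controls. Rrm1 was at 41.5, 49.4, 42.4, 37.4 and 44.6 CPM in Etv5KO lung libraries, against 50.1, 36.4, 34.9, 39.1 and 31.5 CPM in controls. Control library 1 was again the highest of all lung libraries in both genes. Pcna lay between 4.46 and 5.87 CPM in Etv5KO lung libraries, against 3.40 and 6.84 CPM in controls, Mcm7 between 11.1 and 15.3 CPM, against 9.58 and 17.03 CPM, and E2f1 between 12.6 and 19.4 CPM, against 11.3 and 22.4 CPM. Their groups overlapped, with log2 fold changes of 0.09 for Pcna (SE 0.17), 0.07 for Mcm7 (SE 0.15) and 0.13 for E2f1 (SE 0.18).

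The difference between the AT2 and the lung genotype effects was tested as an interaction over all 19 libraries. Called higher were 0 members, against 0.791% of the 17698 genes tested, and called lower 0, against 0.802%. Bub1 alone had an unadjusted p under 0.05, against 9.97% of all genes. The log2 difference of its effects, AT2 cells minus lung, was −0.99 (SE 0.36, 95% interval −1.75 to −0.23, edgeR adjusted p = 0.263). The median of the interaction over the members was 0.40 with 40 of 42 above 0. Without control lung library 1 it was −0.07 with 13 of 42 above 0, so its sign rested on that library.

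Sorted AT2 cells were next compared with whole lung, first in the controls. Of the 42 members, 6 were called higher in the sorted cells of controls, against 35.6% of all 17118 genes tested, and 0 were called lower, against 38.9%. The 6 were Bub1 (log2 fold change 2.19, SE 0.20), Cdc20 (1.78, SE 0.53), Prc1, which bundles microtubules of the central spindle (1.33, SE 0.54), Tyms, the enzyme that makes thymidylate (1.04, SE 0.21), Mad2l1, the MAD2 protein of the checkpoint (0.94, SE 0.27), and Pcna (0.83, SE 0.20). The edgeR adjusted p ran from 9.67e-07 for Bub1 to 0.0433 for Prc1. The median over the members was 0.52, with 38 of 42 above 0. An unadjusted p under 0.05 was found for 7 members, all higher, against 76.1% of all genes in either direction. Only Bub1, Tyms and Pcna had every control AT2 library above every control lung library, against 30.7% of all genes. Tyms was at 8.52, 13.6, 11.1 and 9.97 CPM in control AT2 libraries, against 8.20, 4.75, 4.53, 4.25 and 4.55 CPM in control lung libraries, so even here library 1 of lung came near the lowest AT2 library.

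The number called in controls depended on the same libraries and on the scaling. Without control lung library 1 it was 28 higher, against 35.6% of all genes, with a median of 1.08. Without control AT2 library 4 it was 14 higher, against 35% of all genes. Without control AT2 library 2 it was 5 higher and 3 lower, against 36% and 39.2% of all genes. Scaled by library size only, which moved the median of all genes from −0.01 to −0.42 on the log2 scale, 3 members were higher (Bub1, Cdc20 and Tyms), against 19.4% of all genes. Under that scaling 3 were lower (Mcm3, Mcm4 and E2f1), against 55.4%. The calls of Pcna, Mad2l1 and Prc1 were lost under it.

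In the libraries labelled Etv5KO, 38 of the 42 members were higher in AT2 cells than in lung, against 38.3% of all 16740 genes tested, and 0 were lower, against 39.7%. This comparison shares no library with the one in controls, and it shares its libraries with the genotype comparisons above. The difference between the 2 comparisons, gene by gene, is the interaction tested above. That test called 0 of 42 members higher, against 0.791% of all genes, and 0 lower, against 0.802%. The members not called were the helicase subunits Mcm3 (log2 fold change −0.09, SE 0.24) and Mcm4 (0.14, SE 0.17), E2f1 (0.04, SE 0.26) and cyclin E1 (Ccne1, 0.66, SE 0.36). The median was 0.98 over the members, and by role it ran from 0.62 for the licensing genes to 1.36 for the S/G2/M cyclins and mitotic kinases, all 7 of which were called. Cdc20 (1.74, SE 0.32), Ube2c (1.71, SE 0.34), Cdk1, the kinase that drives mitosis (1.58, SE 0.34), and Prc1 (1.49, SE 0.33) had the largest fold changes. Elovl1, which overlaps Cdc20, had a mean of 641 CPM in Etv5KO AT2 cells, against 162 CPM in Etv5KO lung. In controls its means were 2807 CPM in AT2 cells and 375 CPM in lung. The part of overlap reads in the Cdc20 values of both genotypes was not tested. Cdk1 was at 31.8, 31.8, 22.1, 13.1 and 50.9 CPM in Etv5KO AT2 libraries, against 9.24, 17.3, 10.2, 5.09 and 8.59 CPM in Etv5KO lung libraries. AT2 library 4 overlapped lung library 2, and only Mcm6, Pcna and Tyms had no overlap in this comparison, against 30.4% of all genes.

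Called members in the Etv5KO comparison numbered 19 under scaling by library size only, against 21.4% of all genes, where the median of all genes moved from 0.01 to −0.36. Leaving out 1 library at a time gave 30 members higher (without AT2 library 2, against 38.1% of all genes) to 39 (without AT2 library 4, against 37%). With all 19 libraries in 1 fit, 26 members were higher, against 36.2% of all genes. Mcm3 and E2f1, which showed the least difference in Etv5KO libraries, were also at or under 0 in controls, at −0.64 (SE 0.35) and −0.52 (SE 0.34). The lung samples also hold other cells: lymphocyte markers were lower in AT2 cells for 7 of 8 genes in both genotypes. Of 8 AT1 markers 2 were higher and 6 lower in both genotypes. Of 8 airway markers 1 was higher and 6 lower in Etv5KO libraries, against 0 higher and 6 lower in controls. Red blood cell markers were lower for 4 of 4 tested in Etv5KO libraries, against 5 of 5 in controls.

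**Figure D5:**
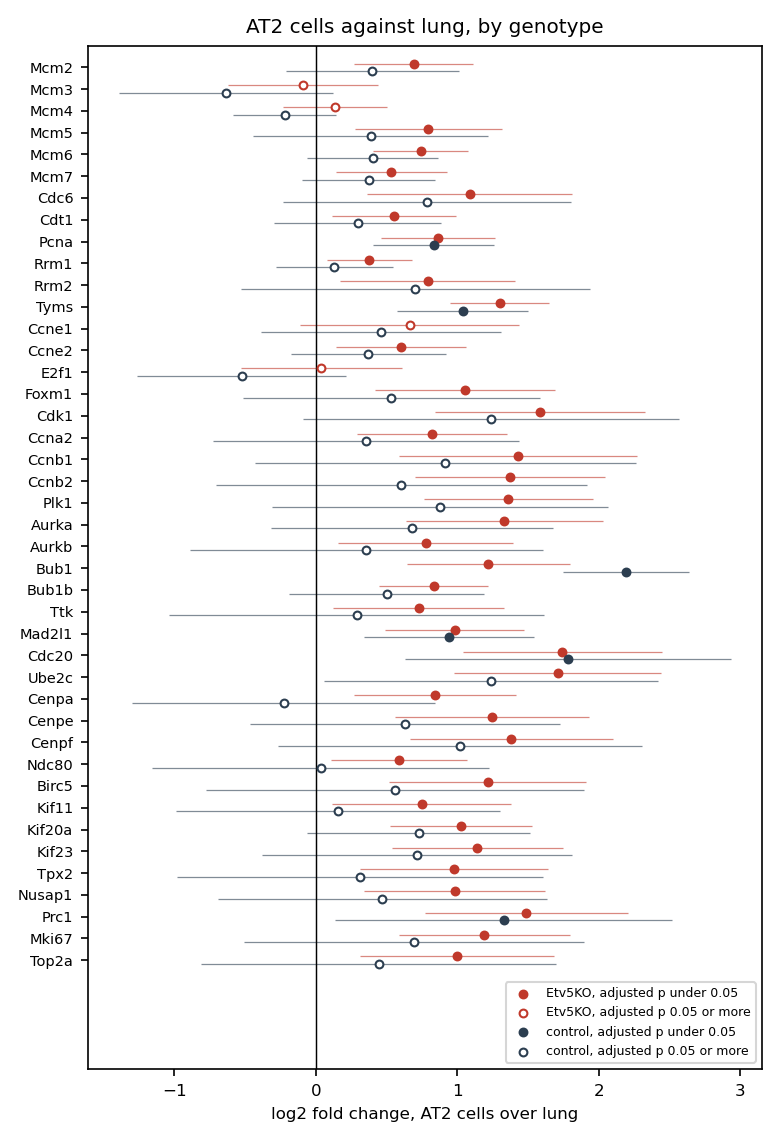
Log2 fold change of each member, AT2 cells over lung, in libraries labelled Etv5KO (red) and in controls (dark), with 95% intervals; filled points have an edgeR adjusted p under 0.05. Of the 42 members, 38 are filled in Etv5KO and 6 in controls, and Bub1 has the largest control value at 2.19.

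Other genes of the cell cycle were read from 3 further lists. Over all genes tested in AT2 cells, 5.03% were higher in libraries labelled Etv5KO and 4.84% lower. Of 37 other S phase genes tested in AT2 cells, 1 was higher in libraries labelled Etv5KO and 0 lower, with a median log2 fold change of 0.34 and 34 above 0. It was Rfc5, a subunit of the clamp loader, at 17.3, 17.3, 16.7, 14.7 and 21.1 CPM in Etv5KO AT2 libraries, against 10.7, 14.6, 11.8 and 8.01 CPM in controls (log2 fold change 0.63, edgeR adjusted p = 0.0294). Of 48 other G2 and M phase genes tested, 1 was higher and 0 lower, with a median of 0.72 and 46 above 0. It was Spc24, of the NDC80 kinetochore complex, at 20.7, 21.9, 27.6, 15.1 and 30.2 CPM in Etv5KO AT2 libraries, against 7.65, 16.1, 13.3 and 6.58 CPM in controls (log2 fold change 1.08, edgeR adjusted p = 0.0268). Rfc5 had no overlap between genotypes, while in Spc24 Etv5KO library 4 lay under control library 2.

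The cell cycle regulators included D cyclins, their kinases and inhibitors, the pocket proteins, other E2F factors and subunits of the DREAM complex. Of 40 regulators tested in AT2 cells, 1 was higher (5.03% of all genes) and 0 lower (4.84%), with a median of 0.07. It was Ccnd1, the cyclin D1 gene, which carries growth factor signals to the G1/S step. Ccnd1 was at 952, 1325, 1289, 1135 and 1107 CPM in Etv5KO AT2 libraries, against 566, 565, 539 and 411 CPM in controls (log2 fold change 1.16, SE 0.12, edgeR adjusted p = 0.000134). Its groups did not overlap, and its Etv5KO effect was larger in AT2 cells than in lung by a log2 difference of 0.74 (edgeR adjusted p = 0.0182). In lung Ccnd1 was at 369 to 453 CPM in Etv5KO libraries, against 244 to 348 CPM in controls, also without overlap. Every Etv5KO lung library was above every control lung library for 0.983% of all genes. In lung none of the 3 lists had a gene past the threshold, with medians of 0.13, 0.29 and 0.00 for the S phase, G2 and M phase and regulator lists. Between AT2 cells and lung, 27 S phase genes were higher and 3 lower in libraries labelled Etv5KO, against 11 higher and 3 lower in controls, of 37 tested in each. For the G2 and M phase list the counts were 35 higher and 0 lower of 48 in Etv5KO libraries, against 8 higher and 0 lower of 47 in controls. Over all genes, 38.3% were higher and 39.7% lower in Etv5KO libraries, against 35.6% higher and 38.9% lower in controls. The counts of the 2 genotypes were not themselves tested against each other. Gene by gene, the interaction is the test of whether AT2 cells over lung differed between genotypes. It called 0 of 37 S phase genes and 0 of 48 G2 and M phase genes in either direction. Over all genes it called 0.791% higher and 0.802% lower.

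Markers of other cell types also differed between genotypes in AT2 cells. Of 8 AT1 markers, 4 were higher and 1 lower in libraries labelled Etv5KO, and of 8 airway secretory and ciliated markers 4 were higher. Over all genes tested in AT2 cells, 5.03% were higher and 4.84% lower. Of 10 AT2 markers 2 were lower, of 9 macrophage markers 1 was higher, and of 8 endothelial markers 1 was lower, while 0 of 7 mesenchymal and 0 of 6 lymphocyte markers tested passed and no red blood cell marker was tested. In lung, 1 AT2 marker, Sftpa1, and 1 macrophage marker, Marco, were lower, and 0 markers of the other lists passed. The summed mesenchymal level was 72.1, 99.0, 59.5, 53.7 and 96.1 CPM in Etv5KO AT2 libraries, against 61.2, 71.9, 45.8 and 43.7 CPM in controls. Within each AT2 group the library with the lowest mesenchymal sum was also the one with the lowest summed level of the 42 members, library 4 in both. The highest mesenchymal sum and the highest summed level of the members were both in library 2 of the controls, while in Etv5KO AT2 cells they were in library 2 and library 5. The summed macrophage level was 46.4 to 51.2 CPM in Etv5KO AT2 libraries, against 35.7 to 58.9 CPM in controls. In control AT2 cells the macrophage sum was likewise highest in library 2 and lowest in library 4. The endothelial and lymphocyte sums were also lowest in control library 4. In Etv5KO AT2 cells the macrophage sum was highest in library 5. The lowest macrophage, endothelial and lymphocyte sums there were in libraries 3, 1 and 2. The part of these cell types in the level of the cell cycle genes was not tested.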

How the data were processed

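RNA-seq of polyadenylated RNA was analysed in 19 mouse libraries. The authors' count for a gene holds its uniquely aligned reads, per the file headers. Alignment used GSNAP and genome build mm9, per the submitters' processing notes. For the annotation, the counting tool and strand use, the sources used here give nothing. Unique alignment lowers the counts of near-identical gene copies. The deposited RPKM values, which the authors adjusted by a size factor per sample, per the file headers, were used only to compare levels between genes. Gene names came from a RefSeq table of GRCm38.p6: 31049 of 36528 IDs matched, with 98.7% of the counts. Members were matched by ID to the listed symbols.

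Counts were tested with edgeR 4.0.16 in R 4.3.3: filterByExpr (minimum count 10, minimum total 15), TMM scaling, the two-sided quasi-likelihood F test and Benjamini-Hochberg adjustment over all genes tested, with a threshold of 0.05. Genotypes were compared in 1 fit per tissue, the tissues were compared within each genotype, and the interaction used all 19 libraries. "Higher", "lower" and "called" in counts refer to that threshold. CPM were scaled by TMM over all 19 libraries. The SE of a log2 fold change and its 95% interval come from the F statistic. The steps were tested on simulated data with known changes. Replicates were compared by a chi-square statistic per degree of freedom (7.81 to 61.8), and no pair was a duplicate. Alternatives were DESeq2 1.42.0, limma-voom (limma 3.58.1), other scalings and filters, and leaving out each library.

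The members and lists were chosen with earlier results of these data known. Library values are given for members past the threshold between genotypes, the 3 largest and 3 smallest fold changes in AT2 cells, Mki67, Top2a and the highest mean RPKM in each role. Values of Bub1b, Tyms, Cdk1, Tpx2 and Mtln, and shares of the other members' sum, were added after values were seen. Neighbours were named where they and the member both passed between genotypes or where the genes overlap. Promoters were printed for members past the threshold between genotypes, Mki67 and the member with most motif kinds in 3 roles.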

Additional observations from a re-analysis of the deposited data

Results flagged for a closer look

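A library counted as standing apart where its gap to the nearest other library of its group, divided by the group's range, was above Dixon's 95% critical value. Of 92 groups of values tested 15 did, where chance gives about 1 in 20, and the values share libraries and genes.

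In 13 of the 15 the library was control lung library 1. It was the highest of its group at 17.5 CPM for Cenpa (others at most 8.06 CPM), 24.5 CPM for Cenpf (9.56 CPM), 11.9 CPM for Ube2c (3.99 CPM), 17.03 CPM for Mcm7 (11.4 CPM), 75.8 CPM for Mki67 (35.2 CPM) and 85.8 CPM for Top2a (27.6 CPM). It was also the highest at 22.4 CPM for E2f1 (others at most 13.5 CPM), 42.9 CPM for Ccna2 (13.8 CPM), 28.5 CPM for Cdc20 (9.09 CPM) and 35.9 CPM for Kif20a (15.3 CPM). The summed level of the 42 members was 1042 CPM in this library, against 374 to 467 CPM in the other 4. Its summed mesenchymal markers were at 4232 CPM (others at most 2740 CPM) and its summed airway markers at 13957 CPM (others at least 23675 CPM).

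In Etv5KO lung, library 4 was the lowest for Pcna at 4.46 CPM (others at least 5.54 CPM), and library 2 the highest for Mcm6 at 55.6 CPM (others at most 46.4 CPM).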

How the results depend on the processing

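Bub1 stayed below the threshold in AT2 cells under every alternative run, with adjusted p from 9.02e-15 to 0.00126. No paired analysis was possible because the labels give each library its own sample ID but no replicate or mouse number shared between groups. In control AT2 cells against control lung, scaling by library size only gave 3 members higher and 3 lower, and limma-voom gave 1 lower. In Etv5KO AT2 cells against Etv5KO lung, library size only gave 19 higher. Leaving out 1 library at a time gave 0 to 1 members higher between genotypes in AT2 cells, and 5 to 28 higher and 0 to 3 lower in control AT2 cells against control lung. It gave medians of −0.0722 to 0.86 for the interaction, and log2 fold changes of −0.0676 to 0.24 for Pcna in AT2 cells, −0.00406 to 0.21 for Pcna in lung and −0.00628 to 0.24 for Mcm7 in lung. The call of Prc1 in control AT2 cells against control lung was also lost with DESeq2 (adjusted p = 0.0646) and when any 1 of 6 libraries was left out. Where these changes name no library or scaling, the cause was not tested. Groups of 4 and 5 libraries limit the precision: the highest library of a group was often several-fold above the lowest, and depth was not tested as a limit.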
